A study of Mus musculus with 18 samples.

Results

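Ventricular myocardium of calorie restricted, leptin-deficient mice was set beside that of lean wild type mice. The comparison used the 5 arrays titled as restricted ob/ob hearts and the 4 titled as wild type, 9 of the 18 arrays of the study, and took in all 13359 genes that passed a filter on low signals. The restricted mice were C57Bl/6J ob/ob animals that ate freely to 6 months and then had their food limited for 1 month so that intake equalled that of ob/ob mice receiving leptin. The wild type mice were C57Bl/6J animals of 6 to 8 months, and the labels give them no treatment. For comparison, the study also holds 4 arrays from ob/ob mice of the same age and strain that ate ad libitum for that month, and 5 from leptin treated ob/ob mice, which carried an osmotic mini-pump. All mice were killed between 7 and 8 AM. The ob/ob genotype carries a premature stop in the leptin gene, so that every ob/ob heart here, the ad libitum controls included, developed without functional leptin. Restricted and wild type hearts therefore differed in genotype, body history and diet at once, and those parts of a difference cannot be told apart from the 9 arrays alone. The labels do not say whether each array holds a separate mouse, so p-values measure only the spread between these samples.

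Leptin is a hormone of fat tissue that signals energy stores to the brain and other organs; without it mice overeat and become obese and insulin resistant. The heart takes most of its energy from fatty acids, and in fasting the nuclear receptor PPAR-alpha, with its coactivator PGC-1-alpha, turns on genes for fatty acid uptake, mitochondrial import and beta-oxidation. Fibroblasts make the collagen network around the myocytes, and resident macrophages and endothelial cells carry much of the heart's antigen presentation and interferon response.

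The values were linear microarray signals, on a scale where each array had the same trimmed mean. The median signal was 22.3 to 31.8 over the restricted and 23.1 to 29.1 over the wild type arrays, and the 3'/5' signal ratios of Gapdh, a measure of RNA integrity, were 0.797 to 0.834 and 0.802 to 0.819. Over the 36 pairs of these 9 arrays the correlation of log2 signals was 0.947 to 0.971, and no pair was identical. Ventricular cardiomyocyte markers had a summed signal over 15 genes of 87650 to 113100 in restricted and 76500 to 83740 in wild type hearts. Restricted replicates 2 and 3 stood apart by atrial transcripts: the summed signal of 9 atrial markers was 15571 and 16195 in them, against 1808 to 3539 in the other restricted and 1795 to 3682 in the wild type arrays. The counts over all genes and those of many lists are therefore also given without those replicates. The leptin receptor Lepr gave 48.0, 29.4, 28.8, 28.4 and 24.7 in the restricted and 9.13, 21.9, 43.9 and 24.8 in the wild type arrays (log2 change 0.40 ± 0.30, adjusted p = 0.46), overlapping ranges.

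Restricted hearts differed from wild type hearts at 1504 genes, 11.3% of those tested, of which 670 (5.02%) were higher and 834 (6.24%) lower (limma, Benjamini-Hochberg adjusted p under 0.05). A total of 3277 genes (24.5%) had an unadjusted p under 0.05, where 668 would be expected if no gene differed. Among called genes 46 rose and 82 fell by at least 1 on the log2 scale, and the median change over all genes tested was 0.0024. Without restricted replicates 2 and 3 there were 892 calls, 324 higher and 568 lower, of which 804 were among the 1504. In the same fit ad libitum ob/ob hearts differed from the same 4 wild type arrays at 40 genes (0.299%) and leptin treated hearts at 1 gene (0.00749%). The size of the difference was tested by setting the restricted arrays against the other ob/ob groups, since the wild type term cancels: 725 genes (5.43%) differed from ad libitum hearts, 328 (2.46%) higher and 397 (2.97%) lower under restriction, and 1819 (13.6%) from leptin treated hearts, 764 (5.72%) higher and 1055 (7.9%) lower. The first of these counts fell to 444 without ad libitum replicate 4, to 445 without ad libitum replicate 3 and to 358 without restricted replicates 2 and 3; the second fell to 1029 without the latter. Under median centring of each array 638 genes differed from wild type hearts, and 983 from leptin treated hearts; 24.2% of the latter were higher under restriction, against 42.0% of the 1819. The calls of Acsl5, Acaa2, Cd36, Fhl1, Kcnj11, Ccnd1, Ccnd2, Map1lc3a, Nr3c1, Irs1, Cat, P4ha2, Klf2, Psmd4 and Pf4, described further on, were lost under that centring, with adjusted p between 0.052 (Acsl5) and 0.13 (Cd36).

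**Figure D1:**
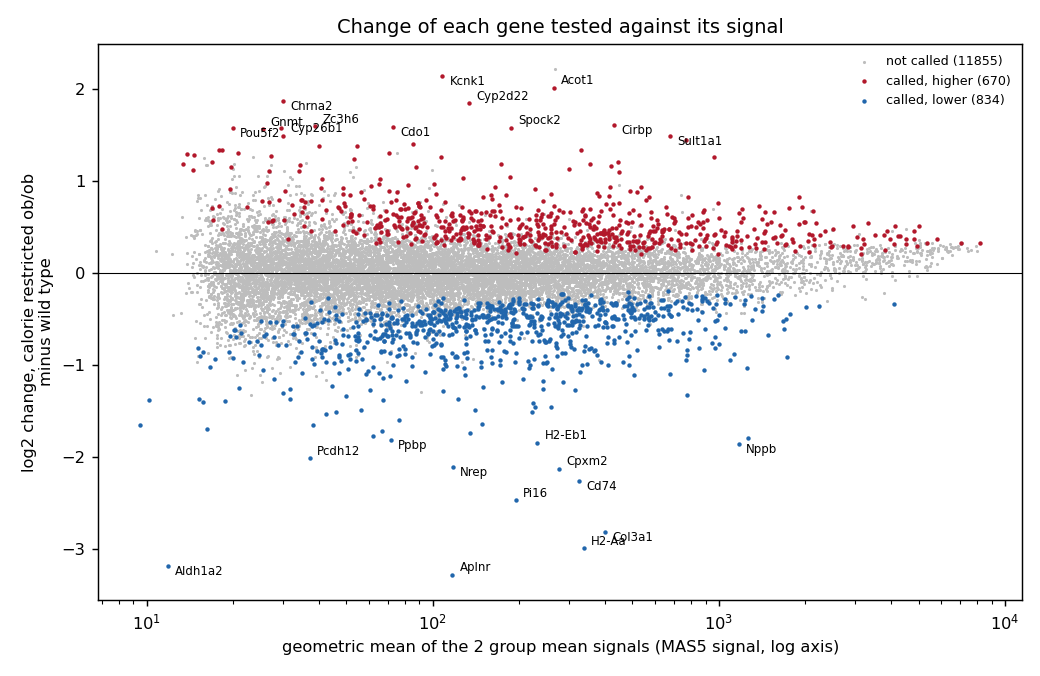
Each point is a gene. The horizontal axis is the geometric mean of its restricted and wild type mean signals, on a logarithmic scale. The vertical axis is its log2 change, restricted minus wild type. The 670 genes called higher and 834 called lower are coloured and the 11855 not called are grey; the falls of Aplnr, Aldh1a2, H2-Aa and Col3a1 (-3.28 to -2.82) reach further from 0 than any called rise (up to 2.14).

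The gene with the largest called rise was Kcnk1, a potassium channel that carries background current. Its signal was 277, 223, 246, 206 and 226 in the 5 restricted arrays and 56.5, 45.2, 58.6 and 38.9 in the 4 wild type arrays, with no overlap (log2 change 2.14 ± 0.13, adjusted p = 1.3e-07; here and below ± is the SE of the fit on log2(signal + 5.13), a scale that understates changes of dim genes). Ad libitum hearts were also above every wild type array, at 196, 252, 213 and 173, and leptin treated hearts lay between, at 127, 107, 127, 130.1 and 141. The restricted and ad libitum groups differed by 0.18 ± 0.13 (adjusted p = 0.53), and Kcnk1 was the only gene called in leptin treated against wild type hearts. Acot1, a cytosolic acyl-CoA thioesterase, had another layout: restricted arrays gave 392, 551, 569, 679.5 and 540, wild type 128, 129.7, 123 and 138 and ad libitum 120.1, 123, 148 and 135. All 5 restricted values exceeded every wild type and ad libitum value (log2 change 2.01 ± 0.34, adjusted p = 0.0014 against wild type and 1.996 ± 0.34, adjusted p = 0.0027 against ad libitum).

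Cirbp, the cold-inducible RNA-binding protein, rose to 691, 934, 859, 571 and 762 from 243, 215, 267 and 248 in wild type hearts (log2 change 1.61 ± 0.17, adjusted p = 2.7e-05). Its change against wild type was 0.15 in ad libitum and -0.43 in leptin treated hearts, and the restricted group exceeded both (1.46 ± 0.17, adjusted p = 0.00012 and 2.05 ± 0.16, adjusted p = 1.1e-06). Cyp2d22, a cytochrome P450, rose by 1.84 ± 0.14 (adjusted p = 1.1e-06) and Sult1a1, a phenol sulfotransferase, by 1.49 ± 0.18 (adjusted p = 0.00011). Spock2, a proteoglycan of the extracellular matrix, rose by 1.58 ± 0.22 (adjusted p = 0.00028) and Zc3h6, a zinc finger protein, by 1.59 ± 0.26 (adjusted p = 0.00097). Cdo1, which oxidises cysteine toward taurine, rose by 1.58 ± 0.23 (adjusted p = 0.00046), and Gnmt, a glycine N-methyltransferase, by 1.56 ± 0.34 (adjusted p = 0.0072). Restricted and wild type arrays did not overlap at any of these 7 genes. Chrna2, a nicotinic receptor subunit, and Pou5f2, a POU-domain factor, also rose without overlap (1.87 ± 0.43, adjusted p = 0.0098 and 1.58 ± 0.37, adjusted p = 0.011), from wild type signals between 4.59 and 38.6 at Chrna2 and between 4.57 and 12.5 at Pou5f2. Cyp26b1, which degrades retinoic acid, had the smallest of the 12 largest rises (1.49 ± 0.39, adjusted p = 0.021) and overlapping groups. Its call was lost without wild type replicate 1 (1.45, adjusted p = 0.053), 2 (1.27, 0.076) or 3 (1.33, 0.064), and without restricted replicates 2 and 3 (1.59, 0.057).

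The largest fall was that of Aplnr, the endothelial receptor for apelin. Its signal was 33.5, 26.7, 37.9, 31.9 and 44.8 in restricted and 398, 348, 273 and 551 in wild type arrays, with every restricted array far below every wild type array (log2 change -3.28 ± 0.23, adjusted p = 7.7e-07). Ad libitum hearts gave 185, 198, 265 and 435 and leptin treated hearts 425, 614, 571, 429 and 504, and the restricted group was lower than both (-2.72 ± 0.23, adjusted p = 2.6e-05 and -3.68 ± 0.22, adjusted p = 1.0e-07). Aldh1a2, which makes retinoic acid from retinaldehyde, had wild type signals of 87.7, 48.2, 38.3 and 82.7. All 5 restricted arrays, at 1.18, 1.98, 1.83, 1.84 and 4.16, lay under the pseudocount of 5.13, so the fitted change of -3.18 ± 0.35 (adjusted p = 3.6e-05) depends on it and was -2.04 with the larger pseudocount tried. Ad libitum hearts were low at Aldh1a2 as well (1.03, 16.1, 8.77 and 26.7), and the restricted group did not pass the test against them (-1.09 ± 0.35, adjusted p = 0.080).

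Beside class II, collagen and natriuretic genes, the large falls included Cpxm2, a carboxypeptidase-like secreted protein (-2.12 ± 0.27, adjusted p = 0.00014), and Nrep, the neuronal regeneration related protein (-2.11 ± 0.16, adjusted p = 1.5e-06). Pcdh12, a protocadherin of endothelial junctions, gave 7.89, 34.5, 8.76, 28.6 and 9.28 against 68.1, 79.5, 70.9 and 91.8. Restricted replicates 2 and 4 stood above the other restricted arrays but still under each wild type array (log2 change -2.01 ± 0.29, adjusted p = 0.00038; -0.83 and adjusted p = 0.049 with its probe sets averaged). Ppbp, a platelet chemokine, had the smallest of the 12 largest falls (-1.81 ± 0.50, adjusted p = 0.025), and restricted replicate 5 read 131 where the other restricted arrays read 18.4 to 20.02. Its call was lost in each of 6 fits that left out 1 array: restricted replicate 1, 2, 3 or 4 (adjusted p = 0.052, 0.060, 0.058 and 0.056) and wild type replicate 2 or 4 (0.087 and 0.067). It was also lost at Ppbp without restricted replicates 2 and 3 (adjusted p = 0.14) and with only the 9 arrays fitted (0.076).

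**Figure D2:**
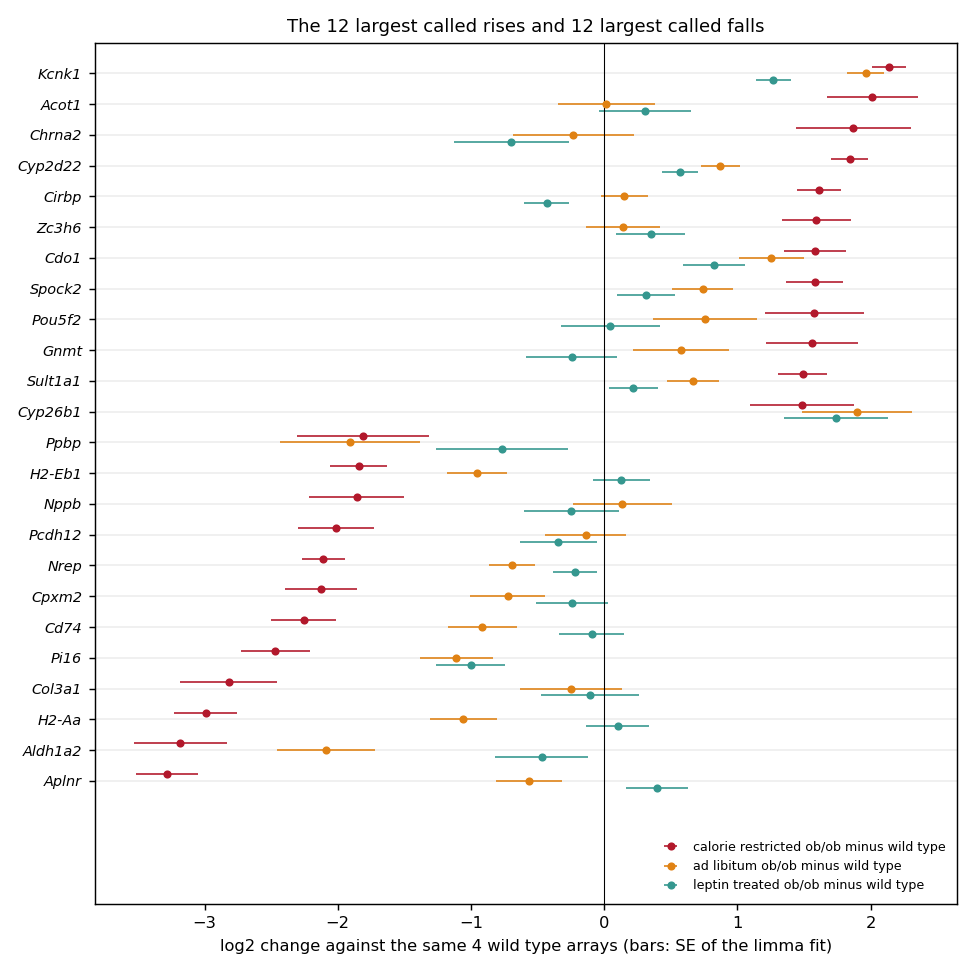
Log2 changes against the same 4 wild type arrays for the 12 largest called rises and falls, in restricted, ad libitum and leptin treated hearts; bars are the SE of the limma fit. Kcnk1 sat near 2 in both restricted and ad libitum hearts (2.14 and 1.96), whereas Aplnr was at -3.28 in restricted, -0.56 in ad libitum and 0.40 in leptin treated hearts.

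Genes of fatty acid oxidation were higher in restricted than in wild type hearts. Of 25 PPAR-alpha responsive genes tested, 17 rose and 0 fell (68.0%, where 5.02% of all genes rose), with a median log2 change of 0.41 beside 0.0024 for all genes. Of 26 genes of the carnitine shuttle and beta-oxidation, which shares members with that list, 13 rose and 0 fell, with a median of 0.33. Without restricted replicates 2 and 3 these counts were 13 and 11 rises. Quantile normalization lowered the medians to 0.25 and 0.18 with 13 and 9 rises. Of 15 ventricular cardiomyocyte markers, 15 were above wild type on average with a median of 0.26, limma called 0 (9 had an unadjusted p below 0.05), and quantile normalization brought their median to 0.01. The direct repeat that PPAR-alpha binds, searched as AGGTCA, any 1 base and AGGTCA on both strands, was in 0 of the 15 called list genes with a promoter window and in 5 of 10737 windows (0.0466%), which says only that these letters are not there. The part of myocyte RNA share or of array scaling in the smaller rises was not tested. Fewer cells of a type and less RNA per cell cannot be told apart in such bulk tissue, here or for any marker list.

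Cpt1a encodes the liver-type form of the carnitine palmitoyltransferase that lets long-chain acyl groups enter mitochondria. It gave 420.4, 663, 513, 466 and 492 in restricted and 266, 315, 238 and 282 in wild type hearts, without overlap (log2 change 0.87 ± 0.13, adjusted p = 0.00068), though the call was lost when all probe sets of the gene were averaged (0.56, adjusted p = 0.071). Mlycd, which removes malonyl-CoA, the inhibitor of that step, gave 808, 963, 814, 900.1 and 794 against 609, 590.2, 519 and 544 (log2 change 0.59 ± 0.10, adjusted p = 0.0013). All 5 restricted values of Mlycd were above the highest wild type value, and its change was 0.02 in ad libitum and -0.05 in leptin treated hearts. Slc25a42, a mitochondrial coenzyme A carrier, rose by 0.76 ± 0.14 (adjusted p = 0.0019). Inside the beta-oxidation spiral, Eci2, an enoyl-CoA isomerase, rose by 0.53 ± 0.08 (adjusted p = 0.00056) and Acaa2, the final thiolase step, by 0.51 ± 0.10 (adjusted p = 0.0025). Further called steps, named here after their values were seen, were Slc25a20 (0.53), Acadvl (0.41), Acadl (0.37), Acadm (0.32), Hadha (0.37), Hadh (0.33) and Decr1 (0.55). Hadhb (0.32 ± 0.11, adjusted p = 0.071) and Cpt2 (0.07 ± 0.11, adjusted p = 0.76), also looked up after the fact, did not pass.

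Ucp3, a mitochondrial uncoupling protein induced by fatty acids, gave 543, 729, 628, 849.9 and 556 in restricted and 367, 295, 276 and 278 in wild type hearts (log2 change 1.10 ± 0.22, adjusted p = 0.0037). The groups did not overlap, and ad libitum hearts were at the other side of wild type, at 197, 158, 215 and 168. Angptl4, a secreted inhibitor of lipoprotein lipase, followed the same order, with 557, 663, 659.6, 813 and 435 in restricted, 451, 264, 208 and 214 in wild type and 112, 81.1, 126 and 112 in ad libitum hearts. Wild type replicate 1, at 451, lay above the lowest restricted value, 435, so the groups overlapped (log2 change 1.17 ± 0.29, adjusted p = 0.017). The Angptl4 call was lost without wild type replicate 3 (1.04, adjusted p = 0.054) or 4 (1.06, 0.055), and without restricted replicates 2 and 3 (1.09, 0.085) or with its probe sets averaged (0.72, 0.080). Against ad libitum hearts the restricted group was higher by 2.47 ± 0.29 (adjusted p = 0.00015) at Angptl4 and by 1.80 ± 0.22 (adjusted p = 0.00017) at Ucp3. Pdk4, the pyruvate dehydrogenase kinase that spares glucose in fasting, gave 4538, 5587, 5197, 6522 and 4932 against 4329, 3354, 3701 and 3979; every restricted value was above every wild type value, but the change did not pass the test (log2 change 0.47 ± 0.23, adjusted p = 0.21).

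For uptake and activation of fatty acids, 7 of 17 genes rose and 2 fell (52.9% called, where 11.3% of all genes were). Their median was 0.28, which quantile normalization reduced to 0.09. The counts were 4 and 2 without restricted replicates 2 and 3. Slc27a1, a fatty acid transport protein of the plasma membrane, gave 633, 732, 638, 760.2 and 629 in restricted and 260.1, 283, 307 and 317 in wild type hearts (log2 change 1.20 ± 0.10, adjusted p = 2.8e-06). Its rise exceeded that of ad libitum hearts (0.79 ± 0.10, adjusted p = 0.00027). Cd36, the main fatty acid translocase of the heart, rose by 0.41 ± 0.09 (adjusted p = 0.0053), from between 3457 and 3942 in wild type to between 4650 and 5539 in restricted hearts. Dbi, the acyl-CoA binding protein, rose by 0.52 ± 0.09 (adjusted p = 0.0014), and Acsl6, an acyl-CoA synthetase, by 0.70 ± 0.12 (adjusted p = 0.0010), the latter lost, at 0.29 (adjusted p = 0.23), when its probe sets were averaged. Acsl5, another synthetase of the family, fell by 0.50 on the log2 scale (adjusted p = 0.0044). Lpl, lipoprotein lipase, lay between 6841 and 9008 in restricted and between 5692 and 6528 in wild type hearts and was not called (log2 change 0.28 ± 0.12, adjusted p = 0.13).

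Among 26 genes of triacylglycerol synthesis, storage and lipolysis, 7 rose and 2 fell (34.6% called, where 11.3% of all genes were), with a median of 0.13. Several of them act in lipolysis. Pnpla2, the adipose triglyceride lipase, gave 2117, 2826, 2369, 2825 and 2654 in restricted hearts against a narrow 1422, 1425, 1417 and 1471 in wild type hearts (log2 change 0.82 ± 0.13, adjusted p = 0.00060), although with all its probe sets averaged the change was 0.60 and not called (adjusted p = 0.16). G0s2, the protein inhibitor of that lipase, went down: 350.3, 279, 381, 315 and 389.9 against 809, 732, 688 and 739.6, with no overlap (log2 change -1.11 ± 0.12, adjusted p = 4.3e-05). G0s2 was already low in ad libitum hearts (449, 372, 389.5 and 431), which the restricted group did not differ from by the test (-0.26 ± 0.12, adjusted p = 0.26); leptin treated hearts were at 640.2, 808, 780.2, 534 and 629.6. Plin5, a droplet protein that ties lipid droplets to mitochondria, rose from between 1035 and 1538 in wild type to between 1793 and 2138 in restricted hearts (log2 change 0.66 ± 0.12, adjusted p = 0.0025). Cidea, a droplet-fusing protein that is also on the list of adipocyte markers, rose from between 377 and 482 in wild type to between 616 and 816 in restricted hearts (log2 change 0.82 ± 0.10, adjusted p = 0.00011). The summed signal of adipocyte markers was 5851 to 6856 in restricted and 5271 to 6146 in wild type hearts, and 1 of 4 was called, Cidea itself. Most of that sum was Fabp4 (mean 5423 in restricted and 5312 in wild type hearts). Adipoq, Lep, Cidec and Ucp1 did not pass the filter on low signals. Their means were 17.6, 8.06, 12.1 and 13.2 in restricted against 8.8, 4.11, 2.44 and 3.43 in wild type hearts. At Adipoq and at Ucp1 a single restricted array, with a signal of 56.3 and 49.9, made up most of the restricted mean. Retn, which was tested and not called, had means of 45.2 in restricted and 33.9 in wild type hearts. Car3 went the other way (19.3 against 27.0). The part of fat tissue in the rise was not tested. Plin2, the droplet coat protein, was not called (log2 change 0.14 ± 0.13, adjusted p = 0.56).

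**Figure D3:**
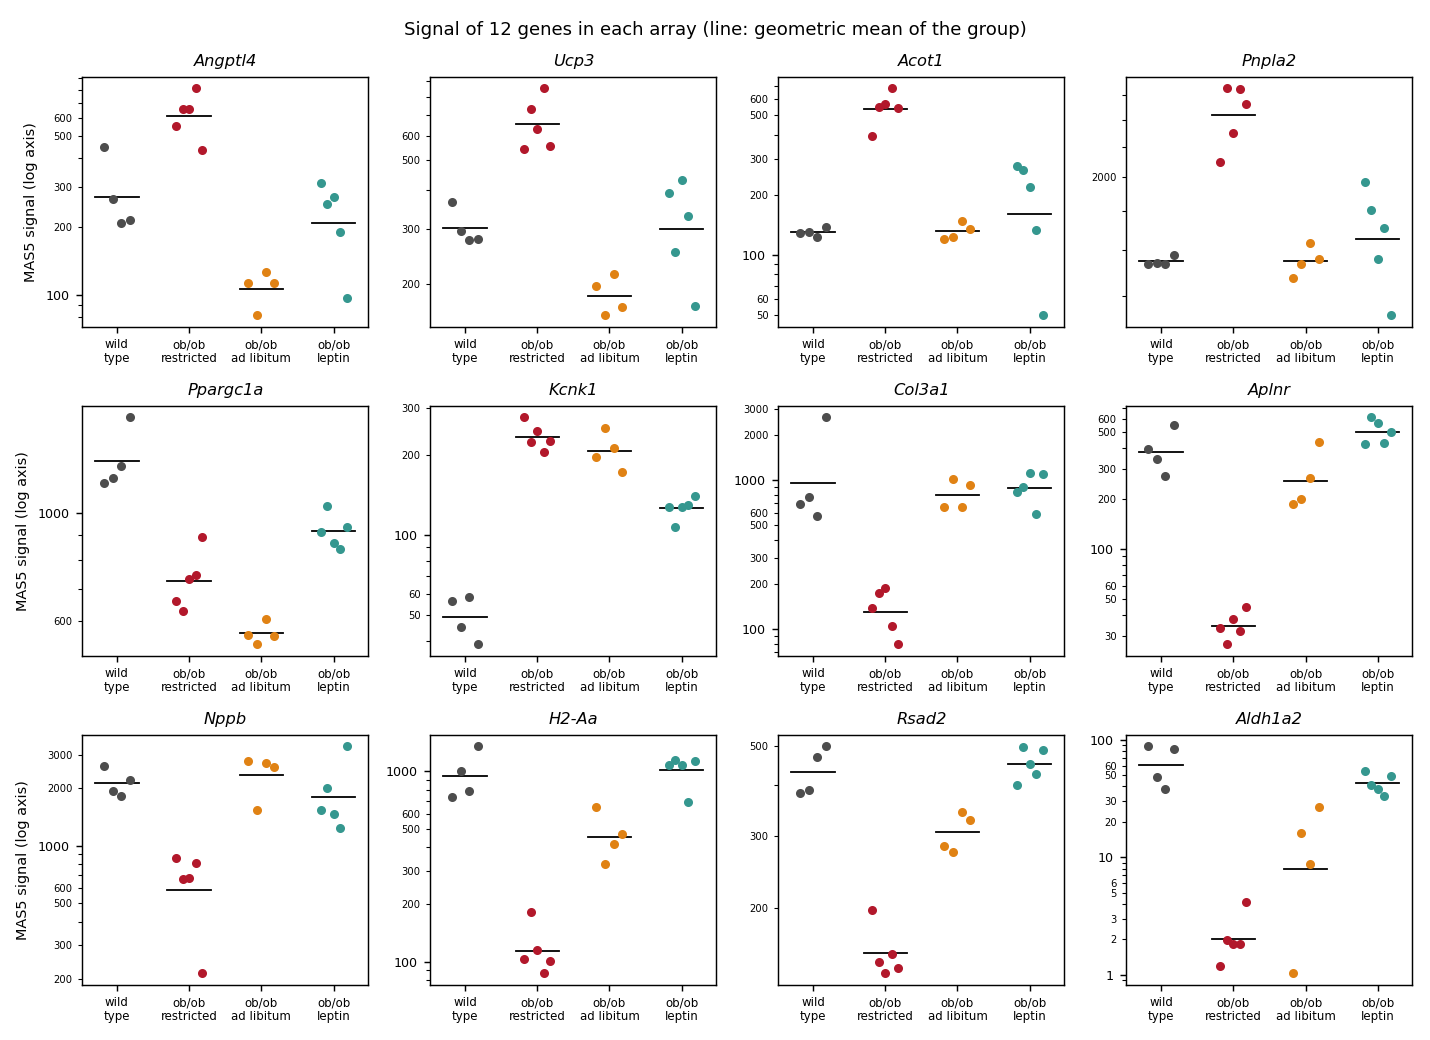
Signal of 12 genes in each of the 18 arrays on logarithmic axes, by group; lines are geometric means. Ucp3 and Angptl4 are lowest in ad libitum and highest in restricted hearts, Acot1 and Pnpla2 are high in the restricted arrays beside near-equal wild type and ad libitum arrays, and Aplnr, H2-Aa, Rsad2, Col3a1 and Nppb are lowest in the restricted arrays.

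Ppargc1a and Ppara, which drive fatty acid oxidation genes, were lower and not higher in restricted hearts. Ppargc1a, which encodes PGC-1-alpha, gave 659, 631, 733, 745 and 894 in restricted and 1152, 1181, 1250 and 1569 in wild type hearts, without overlap (log2 change -0.81 ± 0.11, adjusted p = 0.00024). Ad libitum hearts were lower still, at 564, 538, 607 and 561, a change against wild type of -1.17 ± 0.11 (adjusted p = 0.00010); restricted and ad libitum hearts did not differ by the test (0.36 ± 0.11, adjusted p = 0.068). Ppara itself gave 357, 193, 274, 400.2 and 355 against 541, 475, 546 and 530.4 (log2 change -0.76 ± 0.16, adjusted p = 0.0052), and the lowest values, 193 and 274, were those of restricted replicates 2 and 3; without them the fall was 0.49 on the log2 scale (adjusted p = 0.012). Of the 21 genes of PGC-1 coactivators and mitochondrial transcription 3 fell and 0 rose (14.3% called, near the 11.3% of all genes). The remaining call, Tfb1m, a mitochondrial methyltransferase (-0.60 ± 0.13, adjusted p = 0.0074), was lost without restricted replicates 2 and 3 (-0.45, adjusted p = 0.063) and with its probe sets averaged (-0.33, 0.41).

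Subunits of oxidative phosphorylation were slightly higher on average, by an amount that depended on the scaling of the arrays. Of 77 subunits tested, 74 were higher on average, 41 had groups that did not overlap (13.6% of all genes did not, with 6.68% higher in all restricted arrays and 6.9% lower), and 3 passed the test, with a median of 0.21. Quantile normalization left a median of 0.02 with 0 calls by limma; 44 subunits had an unadjusted p under 0.05 in the fit as reported. With the atrial signal as a covariate there were 12 calls, and without restricted replicates 2 and 3 there were 0. Ad libitum and leptin treated hearts gave medians of 0.14 and 0.16 against the same wild type arrays. In pyruvate dehydrogenase and the citric acid cycle 3 of 30 genes rose and 1 fell (13.3% called, near the 11.3% of all genes). Their median was 0.18, and 0 were called without restricted replicates 2 and 3.

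Of 28 genes of glucose uptake, glycolysis and glycogen, 1 rose and 3 fell (14.3% called, near the 11.3% of all genes). The counts were 1 and 1 without restricted replicates 2 and 3. Hk2, hexokinase 2, gave 1165, 945, 1080, 1250 and 1482 in restricted and 1792, 1789, 1917 and 1999 in wild type hearts, with no overlap (log2 change -0.67 ± 0.11, adjusted p = 0.00098). Slc2a4, the insulin-dependent glucose transporter, was not called (log2 change -0.23 ± 0.11, adjusted p = 0.24). The rise was that of Arrdc4, an alpha-arrestin of the Txnip family that lowers glucose uptake: 136, 195, 181, 83.8 and 120.1 against 39.9, 79.6, 36.6 and 48.0 (log2 change 1.40 ± 0.22, adjusted p = 0.00081). The 2 highest values, 195 and 181, came from restricted replicates 2 and 3, and without them the rise was 1.11 (adjusted p = 0.0079); with its probe sets averaged it was 0.75. Txnip, its better known relative, was not called (log2 change 0.43 ± 0.15, adjusted p = 0.083).

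For ketone bodies and branched-chain amino acids, 5 of 22 genes fell and 1 rose (27.3% called, where 11.3% of all genes were). Bdh1, the mitochondrial hydroxybutyrate dehydrogenase, gave 939, 592, 693, 909.8 and 735 in restricted and 1328, 1244, 1313 and 1354 in wild type hearts (log2 change -0.78 ± 0.12, adjusted p = 0.00069). No restricted value reached the lowest wild type value, while ad libitum hearts lay above wild type, at 1755, 1783, 2154 and 1937; restricted minus ad libitum was -1.31 ± 0.12 (adjusted p = 2.6e-05). With its probe sets averaged the fall of Bdh1 against wild type was larger, at -1.32. Dbt, a subunit of the branched-chain keto acid dehydrogenase, fell from between 405 and 488 in wild type to between 238 and 321 in restricted hearts (log2 change -0.68 ± 0.11, adjusted p = 0.0010). Without restricted replicates 2 and 3, 2 genes of the list fell and 0 rose.

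Genes of lipid synthesis were called about as often as all genes (11.3%). Of 22 genes of fatty acid synthesis, elongation and desaturation, 2 fell, 0 rose and 20 were not called (9.09% called); Elovl5, an elongase of polyunsaturated fatty acids, fell from between 361 and 442 in wild type to between 251 and 283 in restricted hearts (log2 change -0.56 ± 0.08, adjusted p = 0.00033). In cholesterol synthesis and uptake 3 of 22 fell and 1 rose (18.2% called), and 0 were called without restricted replicates 2 and 3. Insig1, a feedback inhibitor of sterol synthesis, had a log2 change of -0.77 ± 0.17 (adjusted p = 0.0074), or -0.66 (adjusted p = 0.060) without those replicates. Of 19 sphingolipid genes, Degs1, the enzyme that makes ceramide from dihydroceramide, fell (-0.49 ± 0.09, adjusted p = 0.0020) and 1 other rose (10.5% called).

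Collagen and matrix genes were lower in restricted hearts. Of 26 genes of fibrillar and basement membrane matrix, 14 fell and 0 rose (53.8%, where 6.24% of all genes fell), with a median of -0.48. Without restricted replicates 2 and 3, 13 fell and the median was -0.57, and under quantile normalization 14 fell. Ad libitum and leptin treated hearts had medians of -0.02 and 0.02 against the same wild type arrays. Against ad libitum hearts 13 of the 26 were lower and 0 higher, where 2.97% of all genes were lower.

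Col3a1, the fibrillar collagen III chain, gave 139, 174, 189, 106 and 79.2 in restricted and 699, 775, 578 and 2646 in wild type hearts. Wild type replicate 4 stood well above its group, and the lowest wild type value, 578, was still over every restricted value (log2 change -2.82 ± 0.37, adjusted p = 0.00016). Col1a1, of collagen I, showed the same layout: 78.8, 78.7, 81.9, 49.4 and 40.1 against 189, 160.4, 129.6 and 624 (log2 change -1.74 ± 0.34, adjusted p = 0.0031). Both calls held in each fit that left out 1 array, wild type replicate 4 included. Col5a2, of the collagen V that helps set fibril diameter, fell from between 133 and 352 in wild type to between 54.7 and 88.1 in restricted hearts (log2 change -1.36 ± 0.21, adjusted p = 0.00070). Col4a1, of the basement membrane, had tighter groups, with 634, 575, 645, 625 and 593 against 1345, 1431, 1122 and 1248 (log2 change -1.06 ± 0.11, adjusted p = 1.9e-05). Its ad libitum and leptin treated changes were 0.02 and 0.13, and restricted minus ad libitum was -1.08 ± 0.11 (adjusted p = 5.3e-05). Col6a2, of the pericellular collagen VI network, fell by 0.95 on the log2 scale (adjusted p = 0.00016). With the larger pseudocount tried the change of Col6a2 was -1.55. The probe set of highest mean was chosen anew in that setting. As a larger pseudocount shrinks the change of any single probe set, -1.55 belongs to another probe set of Col6a2.

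Among 35 genes of matrix assembly, cross-linking and remodelling, 11 fell and 0 rose (31.4% called, where 6.24% of all genes fell). Serpinh1, the collagen chaperone HSP47, gave 419, 491, 446, 644 and 461 against 1262, 1190, 1080 and 1382, and the highest restricted value was far from the lowest wild type value (log2 change -1.32 ± 0.12, adjusted p = 4.0e-06). Sparc, a collagen-binding matricellular protein, fell from between 794 and 1278 in wild type to between 407 and 514 in restricted hearts (log2 change -1.10 ± 0.12, adjusted p = 3.1e-05), and Pcolce, which aids procollagen cleavage, from between 531 and 768 in wild type to between 335 and 384 in restricted hearts (log2 change -0.90 ± 0.14, adjusted p = 0.00085). The prolyl hydroxylases that stabilise collagen fell too, with log2 changes of -0.96 ± 0.19 (adjusted p = 0.0030) at P4ha1 and -0.64 ± 0.14 (adjusted p = 0.0063) at P4ha2. With the probe sets of a gene averaged, Sparc and Col5a2 were still called but at -0.44 and -0.77. In TGF-beta and BMP signalling 3 of 27 fell and 0 rose (11.1% called, near the 11.3% of all genes). Fstl1, a follistatin-like secreted protein, went from between 329.8 and 744 in wild type to between 176 and 269 in restricted hearts (log2 change -1.08 ± 0.19, adjusted p = 0.0016). Fn1, fibronectin, looked up after the fact, was not called (-0.71 ± 0.24, adjusted p = 0.064).

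Markers of fibroblasts moved with these genes. Of 17 fibroblast markers 11 fell and 0 rose (64.7% called, where 6.24% of all genes fell). Their median was -0.64, and their summed signal was 9713 to 12760 in restricted and 11470 to 16390 in wild type hearts. Some markers overlap the matrix list, but Pi16, an adventitial fibroblast protein, gave 71.7, 74.9, 70.8, 107 and 73.0 against 409, 556, 286 and 672, with every restricted value under a lowest wild type value of 286 (log2 change -2.47 ± 0.26, adjusted p = 2.9e-05; -1.35 with its probe sets averaged). Vcan, Thy1 and Dpt, a proteoglycan, a surface glycoprotein and a matrix protein, were also called, with log2 changes of -1.27, -0.87 and -0.89. The general markers Dcn (0.13 ± 0.11, adjusted p = 0.49), Gsn (0.13 ± 0.10, adjusted p = 0.47), Pdgfra (-0.15 ± 0.23, adjusted p = 0.77) and Tcf21 (-0.20 ± 0.12, adjusted p = 0.35), picked out after their values were seen, were not called. The part of fibroblast number in the collagen result was not tested.

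**Figure D4:**
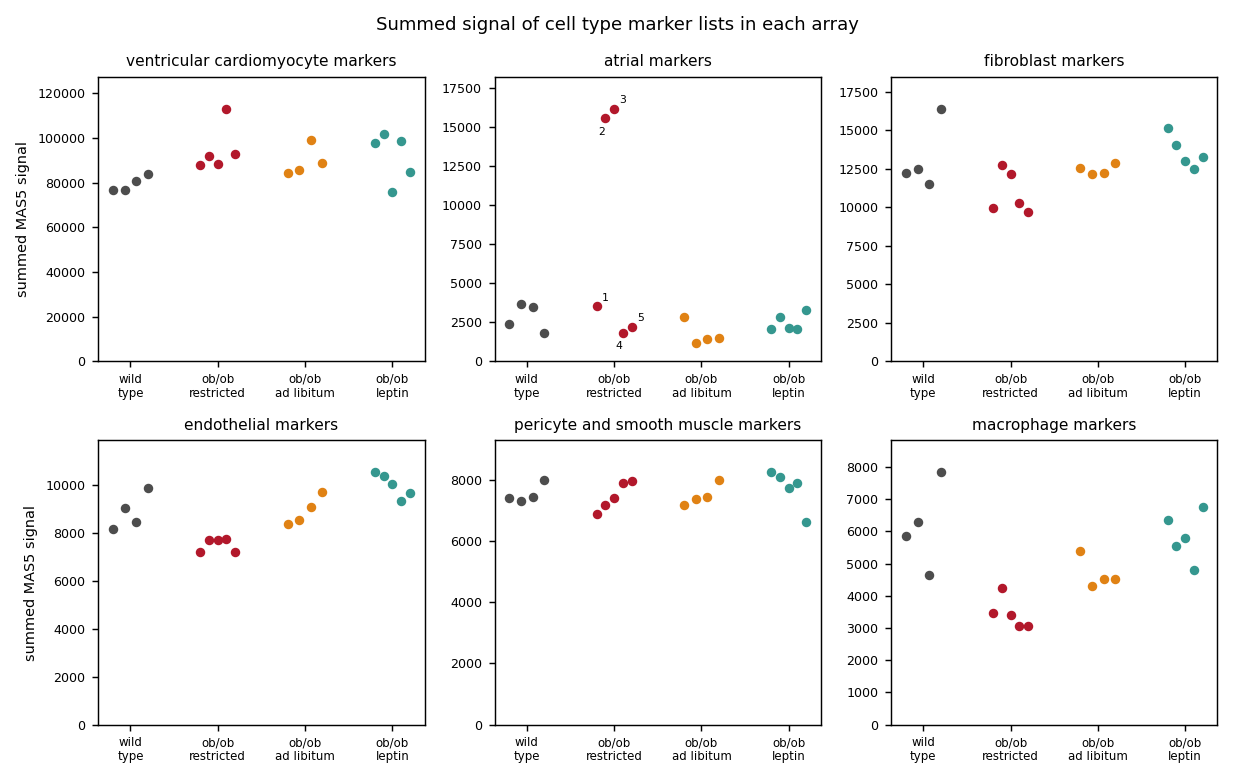
Summed signal of the tested members of 6 cell type marker lists in each of the 18 arrays, by group, with the replicate numbers of the restricted arrays beside their points in the atrial panel; the axes start at 0. Macrophage sums are 3066 to 4230 in restricted and 4637 to 7843 in wild type hearts and do not overlap, fibroblast sums overlap, ventricular cardiomyocyte sums are higher in restricted hearts, and restricted replicates 2 and 3 carry the atrial signal.

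Immune genes were lower in restricted hearts as well. Of 35 interferon responsive genes 16 fell and 0 rose (45.7%, where 6.24% of all genes fell), with a median of -0.62, and of 18 genes of antigen presentation 9 fell and 0 rose, with a median of -0.46. Without restricted replicates 2 and 3 the counts were 14 and 9. Type I interferon acts through a complex that binds interferon-stimulated response elements in promoters, and class II genes share X and Y boxes bound by a factor assembled with the activator CIITA.

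Promoter windows from RefSeq (assembly GRCm38.p6, 250 bases before each gene's start) were at hand for 10737 of the 13359 genes tested, among them 27 of the 35 interferon genes and 13 of the 18 antigen presentation genes. The letters GAAA, any 2 bases and GAAA again, on either strand, a core of the interferon element, occurred in 13 of the 27 (48.1%), against 328 of 10737 windows (3.05%): in 7 of 12 called genes (58.3%) and 6 of 15 not called (40%). Stretches of 5 called genes are shown, on the gene's strand from 5′ to 3′ with the matched letters in capitals, because the same short element recurs beside different surroundings. Rsad2 lies at chr12:26456538-26456597 (minus strand), Ifit1 at chr19:34640760-34640838 (plus), Ifit3 at chr19:34583348-34583441 (plus), Bst2 at chr8:71537562-71537627 (minus) and Gbp2 at chr3:142620579-142620638 (plus); Ifit3, Bst2 and Gbp2 were added after their values were seen.
Rsad2: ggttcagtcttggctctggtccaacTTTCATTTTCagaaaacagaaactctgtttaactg
Ifit1: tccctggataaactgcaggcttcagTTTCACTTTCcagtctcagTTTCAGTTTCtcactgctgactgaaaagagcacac
Ifit3: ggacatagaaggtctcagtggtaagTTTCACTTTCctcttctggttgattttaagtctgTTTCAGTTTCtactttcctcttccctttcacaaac
Bst2: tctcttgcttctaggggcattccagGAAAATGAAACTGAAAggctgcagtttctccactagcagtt
Gbp2: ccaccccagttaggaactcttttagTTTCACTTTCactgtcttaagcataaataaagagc
In Ifit1 and Ifit3 the element occurs 2 times, and in Bst2 2 matches overlap. A match is a description of the letters and not a measured binding site.

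Rsad2, the antiviral protein viperin, gave 197, 147, 138, 154 and 142 in restricted and 382, 389.6, 469 and 499 in wild type hearts, so the highest restricted value was well under the lowest wild type value (log2 change -1.46 ± 0.12, adjusted p = 1.8e-06). Ad libitum hearts lay between, at 283, 275, 343 and 329.6, and leptin treated hearts with wild type, at 400.4, 497, 453, 426 and 489; restricted hearts were below both, with log2 changes of -0.97 ± 0.12 (adjusted p = 0.00017) and -1.52 ± 0.11 (adjusted p = 7.6e-07). Ifit1, which binds foreign RNA caps, gave 34.6, 45.7, 44.5, 38.3 and 25.9 against 72.5, 75.6, 74.9 and 85.8 (log2 change -0.96 ± 0.16, adjusted p = 0.00087), and its neighbour in the family Ifit2 gave 24.1, 24.6, 31.1, 32.4 and 31.8 against 60.2, 43.2, 54.6 and 71.8 (log2 change -0.87 ± 0.14, adjusted p = 0.00081). Rtp4, an interferon-induced receptor transporter protein, fell from between 131 and 216 in wild type to between 45.4 and 101 in restricted hearts (log2 change -1.29 ± 0.22, adjusted p = 0.0013). None of these 4 genes had overlapping groups. Ifit3, Bst2 and Gbp2 changed by -0.75, -0.75 and -0.80. Irf7 (-0.56 ± 0.18, adjusted p = 0.063) and Irf1 (-0.30 ± 0.11, adjusted p = 0.10), factors that drive such genes, were looked up after the fact and were not called. The list's median was -0.17 in ad libitum and 0.03 in leptin treated hearts. Against ad libitum hearts 7 of the 35 were lower and 1 higher under restriction, where 2.97% of all genes were lower and 2.46% higher.

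Class II histocompatibility genes, which present peptides to helper T cells, had the deepest falls among the antigen presentation and interferon genes. H2-Aa, the A alpha chain, gave 104, 182, 115, 86.9 and 101 in restricted and 734, 1008, 784 and 1354 in wild type hearts, and the highest restricted value, 182, was far below the lowest wild type value, 734 (log2 change -2.99 ± 0.24, adjusted p = 1.7e-06). Ad libitum hearts were at 648, 325, 417 and 467 and leptin treated hearts at 1077, 1152, 1078, 690.3 and 1139, and restricted minus ad libitum was -1.94 ± 0.24 (adjusted p = 0.00018). Cd74, the invariant chain that guides class II molecules, gave 149, 233, 131, 114 and 107 against 538, 776, 545 and 1012 (log2 change -2.26 ± 0.24, adjusted p = 3.2e-05). H2-Eb1, the E beta chain, changed by -1.84 ± 0.21 (adjusted p = 5.8e-05), and H2-Ab1, the A beta chain, by -1.64 ± 0.22 (adjusted p = 0.00024), where wild type replicate 4 read 357 and the other wild type arrays 230.2 to 246. In all 4 genes restricted replicate 2 was the highest restricted array. Class I heavy chains were not called: H2-K1 had -0.43 ± 0.17 (adjusted p = 0.12) and H2-D1 -0.43 ± 0.15 (adjusted p = 0.071), both looked up after the fact.

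The Y box letters CTGATTGG, on either strand, were found in 3 of 7 called (42.9%) and 2 of 6 uncalled (33.3%) antigen presentation genes with a window, and in 638 of all 10737 (5.94%). The X core, searched as AGCAAC, any 1 base and GATG on either strand, occurred in 1 of the 7 and in 8 of 10737 (0.0745%). The called genes with the Y box letters were H2-Aa, H2-Eb1 and Psmb9, the last of which is not a class II gene and is not shown. H2-Aa (chr17:34287847-34287894, minus strand) and H2-Eb1 (chr17:34305755-34305832, plus strand) are shown because they carry the Y box, and H2-Eb1 the X core upstream of it. Capitals mark both boxes.
H2-Aa: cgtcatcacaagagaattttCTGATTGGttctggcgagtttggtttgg
H2-Eb1: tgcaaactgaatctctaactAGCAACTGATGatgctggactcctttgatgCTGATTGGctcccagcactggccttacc
The capitals begin 51 bases before the gene's start in H2-Aa and 92 in H2-Eb1.

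Markers of macrophages, a source of class II transcripts, were lower over the whole list. Of 22 markers 14 fell and 0 rose (63.6% called, where 6.24% of all genes fell). All 22 had a negative change on average, the median was -0.83, and their summed signal did not overlap (3066 to 4230 in restricted, 4637 to 7843 in wild type hearts). Csf1r, the receptor for the macrophage growth factor, gave 614, 667, 560.2, 542 and 493 against 949.7, 1127, 849.8 and 1223 (log2 change -0.84 ± 0.12, adjusted p = 0.00029). Adgre1, the F4/80 antigen, gave 128, 114, 83.5, 102 and 81.4 against 169.8, 274, 161 and 254 (log2 change -1.02 ± 0.17, adjusted p = 0.0010), C1qb of complement C1q changed by -1.19 ± 0.20 (adjusted p = 0.0010) and Folr2, a folate receptor of resident macrophages, by -1.002 ± 0.17 (adjusted p = 0.0011). None of the 4 had overlapping groups. Csf1, the growth factor itself, fell from between 201 and 257 in wild type to between 127 and 159 in restricted hearts (log2 change -0.65 ± 0.12, adjusted p = 0.0019; -0.39 with its probe sets averaged). Of 17 chemokines and cytokines 4 fell and 0 rose (23.5% called), with Ccl6 at -0.87 ± 0.17 (adjusted p = 0.0029) and Ccl9 at -1.004 ± 0.18 (adjusted p = 0.0023). Cd68 (-0.45 ± 0.24, adjusted p = 0.27) and Lyve1 (-0.14 ± 0.18, adjusted p = 0.70), picked out after the fact, were not called. In ad libitum hearts the macrophage median was -0.36 with 0 calls by limma, where 0.299% of all genes were called. In leptin treated hearts the median was -0.02. Against ad libitum hearts 4 of 22 markers were lower under restriction, where 2.97% of all genes were lower. The part of macrophage number in the class II and interferon results was not tested.

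A minority of vascular genes were called lower, though most had a negative change on average. In the vascular growth factor and apelin systems 5 of 19 genes fell and 1 rose (31.6% called, where 11.3% of all genes were). Of these 19, 18 had a negative change and 11 an unadjusted limma p under 0.05, where 24.5% of all genes had one. Of 27 endothelial markers 5 fell and 1 rose (22.2% called), while 19 had a negative change and 14 an unadjusted limma p under 0.05. They had a median of -0.16 and a summed signal of 7200 to 7726 in restricted against 8134 to 9877 in wild type hearts. Beside Aplnr and Pcdh12, Cd34, a sialomucin of endothelium and stromal progenitors, gave 224, 360.1, 303, 243 and 316 against 516, 624, 475 and 707 (log2 change -0.996 ± 0.14, adjusted p = 0.00029). Sox18, an endothelial transcription factor, fell from between 634 and 778 in wild type to between 440 and 554 in restricted hearts (log2 change -0.52 ± 0.09, adjusted p = 0.0023), and Nrp1, a co-receptor for VEGF, from between 975 and 1166 in wild type to between 652 and 772 in restricted hearts (log2 change -0.61 ± 0.09, adjusted p = 0.00052). The defining junction genes Pecam1 (-0.04 ± 0.15, adjusted p = 0.91) and Cdh5 (-0.09 ± 0.20, adjusted p = 0.85), the VEGF receptor Kdr (-0.34 ± 0.16, adjusted p = 0.20) and the ligands Apln (-0.07 ± 0.16, adjusted p = 0.85) and Vegfa (-0.05 ± 0.16, adjusted p = 0.90) were not called; these 5 were looked up after the fact. Angpt1, the ligand of the Tie2 receptor, rose from between 159 and 194 in wild type to between 231 and 289 in restricted hearts (log2 change 0.59 ± 0.15, adjusted p = 0.018), a call lost without wild type replicate 1 (0.54, adjusted p = 0.055) and without restricted replicates 2 and 3 (0.54, 0.091) or with its probe sets averaged (0.48, 0.086). Pericyte and smooth muscle markers had 1 rise and 1 fall among 12 (16.7% called) and overlapping sums (6888 to 7975 and 7299 to 7990).

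**Figure D5:**
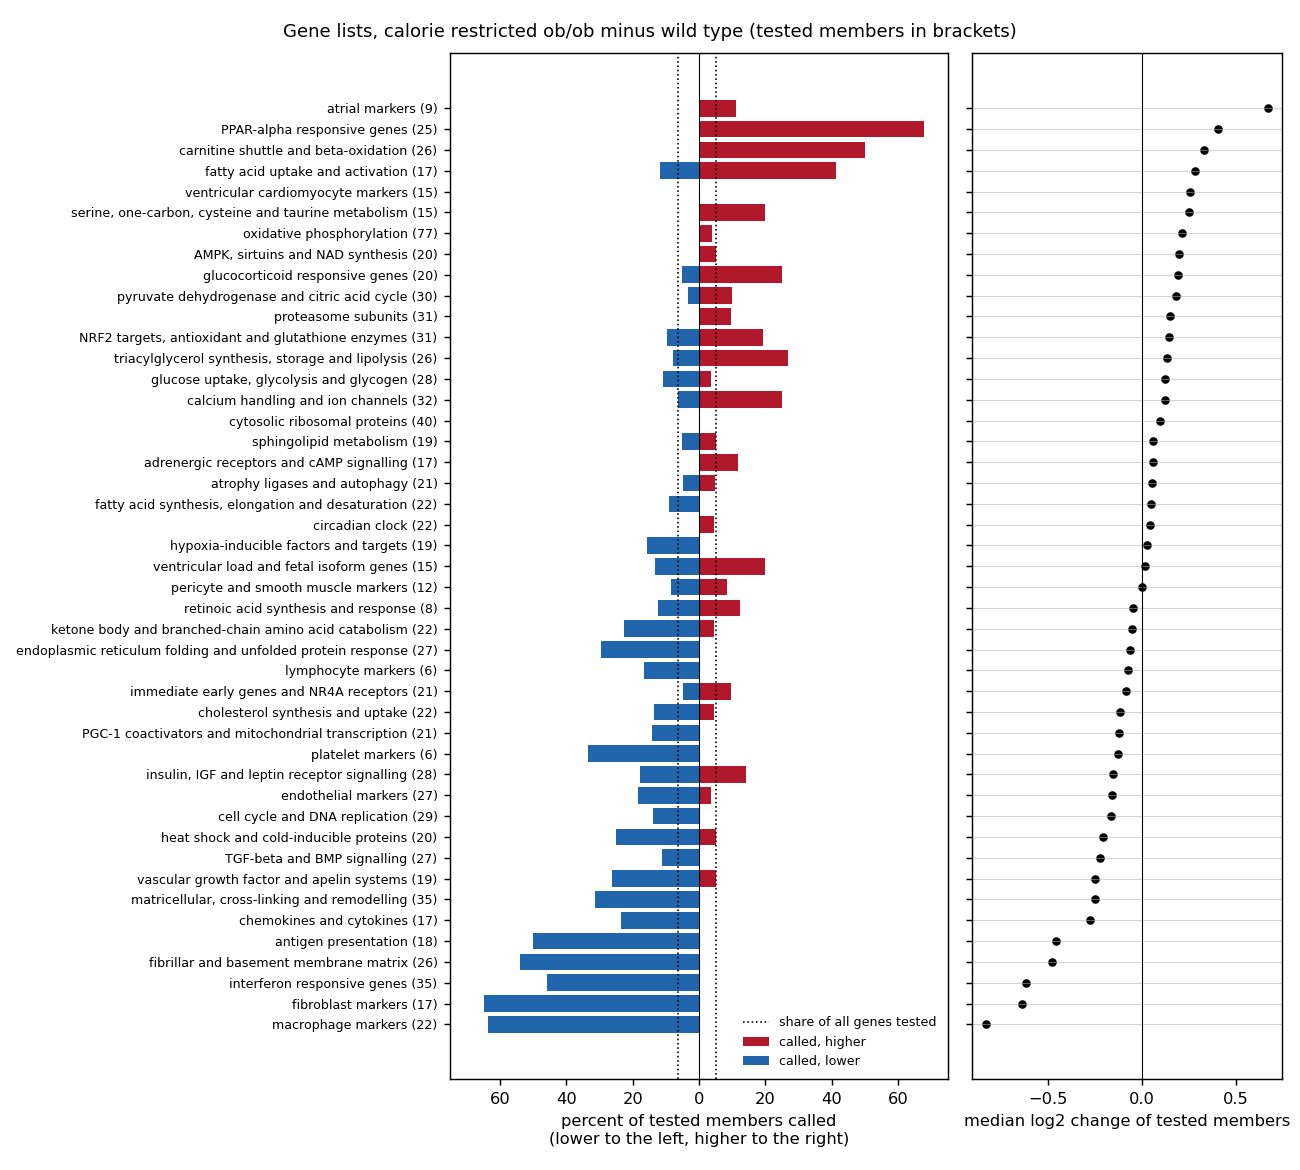
The 45 gene lists with at least 6 tested genes, restricted minus wild type, with the number of tested members in brackets. Bars give the percent of tested members called higher (to the right) and lower (to the left), and dotted lines the share of all genes tested. Points give the median log2 change of the tested members. Macrophage (-0.83), fibroblast (-0.64) and interferon (-0.62) lists have the lowest medians; atrial markers (0.67, and -0.20 without restricted replicates 2 and 3) and PPAR-alpha responsive genes (0.41) have the highest.

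Genes of wall load split. Nppb, the B-type natriuretic peptide that rises with wall stress, gave 863, 665, 677, 807 and 214 in restricted and 2614, 1942, 1832 and 2214 in wild type hearts. Restricted replicate 5 was the lowest by far, and the other 4 still lay under every wild type value (log2 change -1.86 ± 0.35, adjusted p = 0.0029). Ad libitum hearts, at 2790, 1537, 2724 and 2578, were around the wild type values, and restricted minus ad libitum was -1.996 ± 0.35 (adjusted p = 0.0033). Acta1, the skeletal actin of the fetal gene program, gave 842, 709, 657, 514 and 659 against 3071, 1927, 2012 and 2456 (log2 change -1.79 ± 0.37, adjusted p = 0.0051), while restricted and ad libitum hearts did not differ by the test (-0.60 ± 0.37, adjusted p = 0.43). Nppa, the atrial natriuretic peptide, had a log2 change of 0.67 ± 0.46 (adjusted p = 0.42), which became -0.20 without restricted replicates 2 and 3, the arrays with atrial transcripts (5724 and 5566 against 1086 to 1528 in the other restricted arrays). Myh7, the slow myosin heavy chain, was not called (log2 change -0.48 ± 0.38, adjusted p = 0.50). Fhl1, a LIM protein of stretch sensing, rose by 0.37 ± 0.09 (adjusted p = 0.011), a call lost under quantile normalization (0.28, adjusted p = 0.055), under median centring (0.36, 0.097) and with its probe sets averaged (0.10, 0.83).

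Of 32 ion channel and calcium handling genes 8 rose and 2 fell (31.2% called, where 11.3% of all genes were). Without restricted replicates 2 and 3 the counts were 5 and 1. Beside Kcnk1, Kcnh2, the channel of the rapid delayed rectifier current, gave 475, 526, 565, 482 and 579 against 261, 357, 303 and 324 (log2 change 0.75 ± 0.12, adjusted p = 0.00087). Kcnj11, the pore of the ATP-sensitive potassium channel, rose from between 641 and 805 in wild type to between 882 and 1171 in restricted hearts (log2 change 0.49 ± 0.09, adjusted p = 0.0030). Slc8a1, the sodium-calcium exchanger, fell from between 158 and 192 in wild type to between 71.3 and 146 in restricted hearts (log2 change -0.86 ± 0.16, adjusted p = 0.0027), and its call was lost when its probe sets were averaged (-0.31). The calcium pump Atp2a2 (0.29 ± 0.13, adjusted p = 0.19), phospholamban Pln (0.27 ± 0.11, adjusted p = 0.12) and the release channel Ryr2 (0.19 ± 0.09, adjusted p = 0.22), looked up after the fact, were not called. Among 17 adrenergic and cAMP genes 2 rose and 0 fell (11.8% called, near the 11.3% of all genes). Of these, Adra1b, an alpha-1 receptor, gave 99.6, 148, 142, 144 and 135 against 67.9, 54.4, 49.6 and 56.8 (log2 change 1.15 ± 0.12, adjusted p = 3.2e-05). Ad libitum hearts were already high at Adra1b (0.73 ± 0.13, adjusted p = 0.031 against wild type).

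Several chaperones of the cytosol and the endoplasmic reticulum were lower. Of 20 heat shock and cold-inducible genes 5 fell and 1, Cirbp, rose (30% called, where 11.3% of all genes were). Without restricted replicates 2 and 3 the counts were 4 and 1. Hsp90aa1, the inducible HSP90, gave 717, 819, 853, 970.4 and 802 in restricted and 1694, 1616, 1464 and 1376 in wild type hearts, with no overlap (log2 change -0.88 ± 0.11, adjusted p = 0.00013). Hsph1, an HSP110 nucleotide exchange factor, gave 151, 88.7, 113, 183 and 147 against 542, 294, 342 and 355 (log2 change -1.46 ± 0.23, adjusted p = 0.00080), and Dnaja1, an HSP40 co-chaperone, fell from between 485 and 635 in wild type to between 294 and 442 in restricted hearts (log2 change -0.73 ± 0.14, adjusted p = 0.0027). Of 27 genes of endoplasmic reticulum folding 8 fell and 0 rose (29.6% called), and 3 fell without restricted replicates 2 and 3. Dnajc3, an inhibitor of the kinase PERK, changed by -0.53 ± 0.08 (adjusted p = 0.00069), Sdf2l1 by -0.81 ± 0.15 (adjusted p = 0.0020) and Hyou1, an HSP70-like chaperone, by -0.74 ± 0.15 (adjusted p = 0.0038). With probe sets averaged, Hsp90aa1 and Dnajc3 were still called, at -0.57 and -0.33. The heat shock element was searched as GAA, any 2 bases, TTC, any 2 bases and GAA on either strand. It was in 0 of the 5 called and 2 of the 11 uncalled heat shock genes with a window (18.2%), and in 52 of 10737 windows (0.484%). For the called genes this says only that these letters are absent from their windows.

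Changes in hormone signalling genes were mixed. Of 20 glucocorticoid responsive genes 5 rose and 1 fell (30% called, where 11.3% of all genes were). The counts were 3 and 1 without restricted replicates 2 and 3. Fkbp5, a co-chaperone induced by glucocorticoids, gave 405, 559, 589, 600.4 and 625 against 279, 377, 308 and 269.7, with restricted replicate 1 the lowest of its group but above every wild type array (log2 change 0.84 ± 0.16, adjusted p = 0.0026). Errfi1, a feedback inhibitor of EGF receptors, rose by 0.58 ± 0.10 (adjusted p = 0.0020), and the receptor gene Nr3c1 fell by 0.42 on the log2 scale (adjusted p = 0.0025), though only by 0.12 when its probe sets were averaged. In insulin, IGF and leptin receptor signalling 4 of 28 rose and 5 fell (32.1% called), or 1 and 4 without restricted replicates 2 and 3. Igfbp3, an IGF carrier, rose from between 56.9 and 105 in wild type to between 141 and 267 in restricted hearts (log2 change 1.04 ± 0.22, adjusted p = 0.0056), and Igfbp7 fell from between 1291 and 1862 in wild type to between 867 and 1164 in restricted hearts (log2 change -0.63 ± 0.12, adjusted p = 0.0027). Socs2, a feedback inhibitor of growth hormone signalling, changed by -0.60 ± 0.14 (adjusted p = 0.0086), and Irs1, an insulin receptor substrate, by -0.59 ± 0.14 (adjusted p = 0.010), or -0.47 (adjusted p = 0.088) without restricted replicates 2 and 3.

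Among 31 NRF2 targets and antioxidant enzymes 6 rose and 3 fell (29% called, where 11.3% of all genes were). The counts were 4 and 1 without restricted replicates 2 and 3. Gsta4, a glutathione transferase for lipid aldehydes, gave 1015, 1655, 1588, 1638 and 1631 in restricted and 659.6, 562, 559 and 701 in wild type hearts, without overlap (log2 change 1.26 ± 0.14, adjusted p = 3.2e-05). Nqo1, a quinone reductase, rose from between 245 and 314 in wild type to between 367 and 455 in restricted hearts (log2 change 0.57 ± 0.11, adjusted p = 0.0038) and Keap1, the inhibitor of NRF2, by 0.44 ± 0.09 (adjusted p = 0.0055). Catalase, Cat, rose by 0.35 ± 0.08 (adjusted p = 0.013), a call lost under quantile normalization (0.26, adjusted p = 0.051). In serine, one-carbon and taurine metabolism 3 of 15 rose and 0 fell (20% called). Psat1, of serine synthesis, gave 61.5, 76.8, 77.5, 63.1 and 61.1 against 23.5, 25.9, 13.3 and 32.0 (log2 change 1.38 ± 0.20, adjusted p = 0.00036), and restricted hearts exceeded ad libitum hearts by 1.04 ± 0.20 (adjusted p = 0.0049). Cdo1 had log2 changes against wild type of 1.25 in ad libitum and 0.83 in leptin treated hearts (the latter not called), and restricted minus ad libitum was 0.33 ± 0.23 (adjusted p = 0.51).

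Genes of the clock, growth and protein turnover are given beside the 11.3% called among all genes. Of 22 clock genes 1 (4.55%), Per1, rose (0.81 ± 0.20, adjusted p = 0.013; 0.76 and adjusted p = 0.067 without restricted replicates 2 and 3, and 0.051 with only the 9 arrays fitted). Arntl, the BMAL1 activator, and Dbp, a clock output, were not called (-0.27 ± 0.15, adjusted p = 0.30 and -0.53 ± 0.26, adjusted p = 0.22). Restricted and ad libitum hearts did differ at Arntl, by -0.92 ± 0.15 (adjusted p = 0.0020), and restricted and leptin treated hearts at Dbp, by -1.54 ± 0.24 (adjusted p = 0.00058). Of 29 cell cycle genes 4 fell and 0 rose (13.8% called). The D-type cyclins Ccnd1 and Ccnd2 changed by -0.47 ± 0.10 (adjusted p = 0.0061) and -0.46 ± 0.09 (adjusted p = 0.0035), and Cdk1, between 1.79 and 8.02 in restricted and between 12.9 and 29.8 in wild type hearts, was near the pseudocount in the former; its call was lost without restricted replicates 2 and 3 (-1.50, adjusted p = 0.080), and with the larger pseudocount tried its change was -0.94. Of 40 cytosolic ribosomal protein genes limma called 0 (3 had an unadjusted p below 0.05), with a median of 0.09 that turned to -0.07 under quantile normalization. Among 31 proteasome subunits 3 rose (9.68% called), Psmd4 with 0.41 ± 0.07 (adjusted p = 0.0015), lost with its probe sets averaged (0.31, adjusted p = 0.37), and 1 was called without restricted replicates 2 and 3. Atrophy ligases and autophagy genes had 1 rise, Map1lc3a (0.40 ± 0.08, adjusted p = 0.0046; 0.22 and adjusted p = 0.085 under quantile normalization), and 1 fall among 21 (9.52% called). Of the 21 immediate early genes (14.3% called), Klf6 and Klf2 rose (0.68 ± 0.13, adjusted p = 0.0023 and 0.63 ± 0.13, adjusted p = 0.0058) and Nr4a3 fell (-1.49 ± 0.31, adjusted p = 0.0045; -0.44 and adjusted p = 0.14 with its probe sets averaged). Hypoxia-inducible genes had 3 falls among 19 (15.8% called), AMPK, sirtuin and NAD genes 1 rise among 20 (5%), and retinoic acid genes 1 rise and 1 fall among 8 (25%), Cyp26b1 and Aldh1a2.

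Markers of blood cells were called as follows, beside 11.3% of all genes. Of 6 platelet markers 2 fell (33.3%), with sums of 513 to 748 in restricted and 736 to 996 in wild type hearts; Pf4, a platelet chemokine, changed by -0.57 ± 0.14 (adjusted p = 0.012). Red cell markers had 1 fall among 3 (33.3%; sums of 89.9 to 335 and 286 to 335) and lymphocyte markers 1 fall among 6 (16.7%; 214 to 287 and 255 to 388). The part of retained blood in any result was not tested.

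A further set of genes picked by the same naming rule had calls that each were lost in at least 1 alternative, for most of them on leaving out a single array; their adjusted p lay between 0.0080 (Npr3) and 0.0498 (Ccl8). In lipid and sterol metabolism they were Mlxipl (-0.49), Fdft1 (0.61), Abca1 (-0.49), Cyp51 (-0.53) and Smpd2 (0.38), each value being the log2 change against wild type. In glucose, pyruvate, amino acid and energy metabolism they were Slc2a1 (-0.42), Pfkl (-0.38), Pdk3 (1.28), Pcx (-0.55), Sdhd (0.37), Idh3a (0.25), Ivd (-0.39), Mccc1 (-0.26), Csad (0.45), Prkab1 (0.29) and the respiratory subunits Uqcrc1 (0.29) and Ndufb6 (0.29). In signalling they were Tgfbr2 (-0.35), Id2 (-0.68), Nrp2 (-0.66), Ccl8 (-1.08), Npr3 (0.62) and Pde3a (0.81). In growth and protein turnover they were Top2a (-0.90), Manf (-0.59), Atg5 (-0.45), Psmb4 (0.31) and Psmd13 (0.23). Among cell type markers they were Kcnj5 (atrial, 0.53), Pdgfrb (pericyte, -0.40), Tagln (smooth muscle, 0.51), Ighm (lymphocyte, -0.56) and Alas2 (red cell, -1.48). The rule also named Rps6 (-0.36), Rpl13a (0.18, and -0.21 with its probe sets averaged), Hspb7 (0.32) and Myl3 (0.29), which were not called.

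For 9 named genes the ad libitum change against wild type passed the test as well; both comparisons use the same wild type arrays, so their values are given side by side only. Restricted and ad libitum changes were 2.14 and 1.96 at Kcnk1, 1.84 and 0.87 at Cyp2d22, 1.58 and 1.25 at Cdo1, 1.15 and 0.73 at Adra1b and 1.26 and 0.90 at Gsta4. They were -3.18 and -2.09 at Aldh1a2, -1.11 and -0.85 at G0s2, -0.81 and -1.17 at Ppargc1a and -1.49 and -1.74 at Nr4a3. Of these 9, restricted and ad libitum hearts differed by the test at Cyp2d22 alone (0.97 ± 0.14, adjusted p = 0.00067). The other 8 had signed differences of 0.18 at Kcnk1, 0.33 at Cdo1, 0.42 at Adra1b, 0.36 at Gsta4, -1.09 at Aldh1a2, -0.26 at G0s2, 0.36 at Ppargc1a and 0.24 at Nr4a3. A p that misses the threshold does not show that these levels were equal. Aplnr, Col3a1, H2-Aa, Rsad2, Nppb, Acot1, Ucp3, Pnpla2 and Cirbp, in contrast, differed between restricted and ad libitum hearts as well as between restricted and wild type hearts.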

How the data were processed

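The deposited file gives MAS5 signal intensities on a linear scale for 45101 mouse probe sets on 18 arrays; MAS5 is named per the submitters' processing notes, and no other step is given in the sources used here. The trimmed mean of 100.0006 to 100.0007 on the restricted and wild type arrays is that of intensities the authors scaled to a common level. Probe sets were named through the platform annotation (34945 with 1 symbol, 932 with several and 9160 not listed; 64 controls left out), and where a gene had several probe sets that of highest mean signal was kept, which gave 18193 genes. Signals were taken as log2(signal + 5.13), the pseudocount being the 20th percentile of all signals. Genes with a mean log2 signal under the 40th percentile of probe sets (4.36) were left out, which left 13359. One linear model with a term per group over all 18 arrays was fitted with limma 3.58.1 in R 4.3.3; tests were two-sided with Benjamini-Hochberg adjustment over the 13359 genes, called under 0.05. The fit was tested on simulated data with known changes, in which genes varied independently. It called 47% of 100 genes changed 1.5-fold and 79% of 100 changed 2-fold, and 3.08% of its calls were false. A gene that was not called may therefore still differ.

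Named genes were the 12 largest called rises and falls (1 unnamed clone passed over), up to 4 called members of each of 47 lists by smallest p (2 where none was called) and 30 fixed genes, of which 1 was not analysed here; 160 in all. Genes and lists were chosen with earlier results of these data known. Alternatives were other pseudocounts, filters, scalings and probe set rules, arrays left out, moderation settings, array weights, an atrial covariate and a replicate block. Promoter sequences are RefSeq's (GRCm38.p6). The number of arrays limits the precision.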

Additional observations from a re-analysis of the deposited data

Results flagged for a closer look

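In 19 of 320 groups of values (5.94%, where chance sets apart about 5%) an array's gap to the nearest other array of its group exceeded Dixon's critical value as a share of the group's range (0.829 for 4 arrays, 0.710 for 5). No array held more than 5 of the 19 values, and no explanation was weighed.

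Restricted replicate 1 was lowest at Adra1b (gap 0.768 of the range, signal 99.6 against 135 to 148 in the others), Fkbp5 (0.742, 405 against 559 to 625), Gsta4 (0.915, 1015 against 1588 to 1655) and Rps6 (0.829, 95.8 against 121 to 127), and highest at Lepr (0.744, 48.0 against 24.7 to 29.4). Restricted replicate 2 was lowest at Pde3a (0.886, 58.8 against 79.4 to 82.5). Restricted replicate 4 was highest at Lpl (0.827, 9008 against 6841 to 7174), Myl3 (0.733, 10470 against 8159 to 8722), P4ha2 (0.723, 232 against 163 to 180) and Pi16 (0.864, 107 against 70.8 to 74.9), and lowest at Sdf2l1 (0.731, 26.0 against 42.4 to 50.4). Restricted replicate 5 was lowest at Nppb (0.812, 214 against 665 to 863) and highest at Nr3c1 (0.720, 332 against 291 to 302) and Ppbp (0.962, 131 against 18.4 to 20.02).

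Wild type replicate 4 was highest at H2-Ab1 (0.854, 357 against 230.2 to 246), Pnpla2 (0.855, 1471 against 1417 to 1425) and Rpl13a (0.898, 3851 against 3745 to 3756), and lowest at Hyou1 (0.914, 273 against 313 to 317) and Nrp1 (0.863, 975 against 1138 to 1166).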

How the results depend on the processing

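The count of genes called in restricted against wild type hearts was 1504, and 638 under median centring, 979 when only the 9 arrays compared were fitted and 892 without restricted replicates 2 and 3; leaving out 1 array at a time gave 1040 to 1456. Against ad libitum hearts the count was 725, and 213 under median centring, 323 with the atrial covariate and 358 without restricted replicates 2 and 3; leaving out 1 array gave 444 to 737. Against leptin treated hearts it was 1819, and 983, 1198 and 1029 under the same 3 settings; leaving out 1 array gave 1382 to 1662. The cause of the fall under median centring was not tested. Other pseudocounts (1489 and 1524), no filter (1209), a stricter filter (1644), quantile normalization (1550), averaged probe sets (1118) and array weights (1888) stayed within 1.5 times of 1504. With the replicate number as a block the 3 counts were 1230, 512 and 1574; same-numbered restricted and wild type arrays deviated from their groups with correlations of 0.0555, 0.0464, -0.0242 and 0.0935, 1 of 4 wild type arrays correlated best with its own number, and so the numbers were not taken to pair the samples. Of 146 named genes called, 111 were called in each of the 9 fits that left out 1 array, and 157 of the 160 named genes kept their sign in each of the 22 settings that gave them a value (134 genes had a value under the stricter filter, 157 with averaged probe sets and 158 with a pseudocount of 1). The exceptions, none of them called, were Rpl13a (-0.21) and Arntl (0.084) with averaged probe sets and Nppa (-0.20) without restricted replicates 2 and 3. Signals near the pseudocount, as at Aldh1a2 and Cdk1, limit the sizes that can be read.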
